A study of Mus musculus with 6 samples.

Results

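Mitochondrial biogenesis, fission and fusion were followed through 10 genes chosen by name, and all 10 were found among the 23282 genes listed. The 4 biogenesis genes were Ppargc1a, Nrf1, Tfam and Tfb2m, the 3 fission genes were Dnm1l, Mff and Fis1, and the 3 fusion genes were Mfn1, Mfn2 and Opa1. Their transcripts were counted in CD4 T cells that lacked or kept the α1 catalytic subunit of AMPK, the energy-sensing kinase. None of the 9 members expressed highly enough to test passed the threshold between AMPK KO and WT cells, beside 5.65% of all tested genes. The samples of the 2 genotypes overlapped for every member, whereas they did not overlap for 25.6% of all tested genes.

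CD4 T cells had been isolated from spleen and lymph nodes of C57BL/6 mice. WT cells came from Prkaa1 fl/fl mice without Cre (3 samples) and AMPK KO cells from Prkaa1 fl/fl mice with CD4Cre (3 samples), so both genotypes carried the floxed allele. The CD4 promoter drives this Cre in developing T cells, those that become CD8 cells included, so a cell of another lineage in the preparation would keep AMPK. All 6 samples were rested for 1 h and then stimulated with antibodies to CD3 and CD28, each at 2 μg/ml. The labels give 24 h for the stimulation, whereas the published methods give a shorter time. RNA was read at transcript 3′ ends (QuantSeq), and each value below is the authors' log2 of a normalized read level to which 1 had been added. The study describes the samples as biologically independent, and the labels do not say whether each came from its own mouse.

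Between 9575096 and 11185360 reads lay on genes in each sample. Rn45s, the ribosomal precursor RNA, took 20.7 to 24.9% of them in WT and 8.48 to 10.8% in AMPK KO samples. The T cell markers, Cd4 among them, were present throughout, with a summed normalized level of 10 genes between 2958 and 3174 in WT and between 2206 and 2749 in AMPK KO samples, and 3 of the 10 were called lower. In turn, 10 macrophage markers summed to 311 to 364 in WT and 568 to 1128 in AMPK KO samples, and 5 of the 10 were called higher. The sum of 7 neutrophil markers was 771 to 884 in WT and 502 to 740 in AMPK KO samples, with all 5 tested genes lower in mean and 1 of them, Ngp, called (-1.53; limma, adjusted p = 0.00188). Csf3r, too low to test, lay the other way, at 0.14 to 0.29 in WT and 1.18 to 1.60 in AMPK KO samples. Cd4 itself had log2 values of 6.53 to 6.83 in WT and 6.14 to 6.55 in AMPK KO samples, on 809 to 1127 reads. The 2 CD8 markers, which pure CD4 T cells should lack, summed to 231 to 305 in WT and 321 to 376 in AMPK KO samples, on 813 to 1598 reads for Cd8a and 1313 to 2874 for Cd8b1. Against their label, the samples thus held clear CD8 marker transcripts in both genotypes. Xist, expressed from the inactive X chromosome, had log2 values of 0.93 to 2.16 in WT and 7.55 to 7.92 in AMPK KO samples. Of 4 Y-linked genes 3 were called lower in AMPK KO samples but all 4 were present there, with Ddx3y at 8.44 to 8.53 in WT and 6.93 to 7.28 in AMPK KO samples, so each AMPK KO sample held Xist and Y-linked transcripts together. The methods describe female mice, and the sex-linked difference and genotype cannot be told apart. In bulk samples such as these, fewer cells of a type and less RNA per cell cannot be told apart either, and the part of the macrophage, neutrophil and CD8 markers in the values below was not tested.

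Mitochondria are built from proteins of both the nuclear and the mitochondrial genome. PGC-1α coactivates the nuclear respiratory factors, which switch on nuclear genes for respiration and for the copying and transcription of mitochondrial DNA. The network is cut by the dynamin-like GTPase DRP1, which receptors recruit to the outer membrane, and is joined by mitofusins on the outer and OPA1 on the inner membrane. AMPK is known to act on this system largely through phosphorylation, for example of PGC-1α and of the fission receptor MFF, and a transcript level does not report on phosphorylation.

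The targeted kinase was examined first. Prkaa1, which encodes AMPK α1, had log2 values of 4.64, 5.24 and 4.86 in WT and 4.08, 4.72 and 4.67 in AMPK KO samples. The genotypes overlapped, since 2 AMPK KO samples lay above the lowest WT sample. The difference of -0.43 (SE 0.25, AMPK KO minus WT) did not pass the test, with an adjusted p of 0.357 from limma. A read at the 3′ end that lies outside the deleted exons does not check the deletion, and the deleted exons were not located here. Prkaa2, encoding the α2 subunit, had no read in any of the 6 samples, and none of the 5 subunit genes that could be tested was called.

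A group of 4 members carries, in the 300 bases around an annotated start site, the motif CCGGAAG read by ETS factors such as GABP, a known regulator of nuclear genes for mitochondrial proteins. These stretches are shown because transcripts of GABP subunits are among the values given further on. They come from RefSeq on the GRCm38.p6 build, run 5′ to 3′ along the gene's own strand, and the capitals mark the motif, which for Dnm1l lies on the opposite strand. Tfam is at chr10:71238060-71238136 (minus strand), Mfn1 at chr3:32529393-32529469 (plus), Fis1 at chr5:136953212-136953274 (plus) and Dnm1l at chr16:16358545-16358574 (minus).
Tfam: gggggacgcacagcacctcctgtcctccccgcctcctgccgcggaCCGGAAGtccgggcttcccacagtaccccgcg
Mfn1: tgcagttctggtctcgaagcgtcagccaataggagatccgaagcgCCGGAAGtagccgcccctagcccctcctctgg
Fis1: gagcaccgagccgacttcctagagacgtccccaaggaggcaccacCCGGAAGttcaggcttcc
Dnm1l: gctgtcgcttcCTTCCGGccgctgaggacg
The motif began 47 bases before the start site in Tfam, 44 before in Mfn1, 18 before in Fis1 and 13 after it in Dnm1l. Fis1 also held it 20 bases after another annotated start site, in a stretch not printed. On both strands, the motif was present in 8.86% of the 32851 windows of this length in the genome.

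The 10-base palindromic motif of NRF1, spelled by the capitals in the Opa1 line, was found on Opa1 at chr16:29579230-29579309 (plus strand), 59 bases before the start site, and in 0.971% of all windows. Its shorter core GCATGCGC, which lies inside that Opa1 match and was added once the sequences had been seen, also occurred in Tfb2m at chr1:179546245-179546274 (minus strand) and in 2.71% of all windows. Both stretches are shown because NRF1 is itself a member.
Opa1: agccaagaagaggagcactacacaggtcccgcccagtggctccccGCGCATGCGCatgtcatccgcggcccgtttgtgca
Tfb2m: ctaggtcgttcGCATGCGCcattcgtaatg
The core TGACGT of the cyclic AMP response element was found on the opposite strand, where it reads ACGTCA, in Ppargc1a at chr5:51567745-51567820 (minus strand) and in Mfn2 at chr4:147904887-147904916 (minus strand). Mfn2 also held it on its own strand, 41 bases before another annotated start site, in a stretch not printed. It was present in 7.51% of all windows.
Ppargc1a: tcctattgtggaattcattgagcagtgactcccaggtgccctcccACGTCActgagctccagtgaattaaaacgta
Mfn2: accctacagcttACGTCAtctgcacgagac
The estrogen-related receptor motif TCAAGGTCA, held by 0.423% of all windows, was not among the letters of any member's window, and no searched motif occurred in those of Nrf1 and Mff. A match here describes the sequence and does not show that a factor binds it.

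Biogenesis genes were compared first. Ppargc1a (chr5:51454250-51567726, minus strand of GRCm38) encodes PGC-1α, and its log2 values were 0.15, 0.93 and 1.60 in WT and 0.74, 1.32 and 0.00 in AMPK KO samples. These values stood on 1, 9 and 18 reads in WT and on 8, 16 and 0 reads in AMPK KO samples, so that each genotype had 1 sample with at most 1 read. The count of 0 allows up to 3 reads, or a normalized level of 0.252, for counting error only. The mean of 0.79 lay below the minimum of 1 set for testing across genes, and an exact two-sided permutation test of the difference of -0.21 gave p = 0.7. With 3 samples against 3 that test cannot go below 0.1. Fitted without that minimum, the difference had an SE of 0.44 and an adjusted p of 0.847 in limma. The SDs of 0.73 in WT and 0.66 in AMPK KO samples were larger than the difference.

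Nrf1 (chr6:30047988-30153458, plus strand) encodes nuclear respiratory factor 1, and its log2 values were 5.43, 4.91 and 5.10 in WT and 4.90, 4.90 and 5.03 in AMPK KO samples. All 3 AMPK KO samples lay below the WT mean, but AMPK KO sample 3 lay above WT sample 2. The difference was -0.20 (SE 0.21, 95% interval -0.65 to 0.24), with an adjusted p of 0.623 from limma.

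Tfam (chr10:71225464-71238280, minus strand) encodes the factor that packages mitochondrial DNA and starts its transcription. It had log2 values of 5.04, 5.54 and 5.13 in WT and 4.99, 4.71 and 5.67 in AMPK KO samples. Both the highest and the lowest of the 6 values belonged to AMPK KO samples. The difference of -0.11 (SE 0.25, 95% interval -0.65 to 0.43) was smaller than the AMPK KO SD of 0.49, and its adjusted p was 0.839 in limma.

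Tfb2m (chr1:179528055-179546267, minus strand) encodes the transcription factor that opens mitochondrial promoters for the polymerase. Its log2 values were 4.32, 4.99 and 4.003 in WT and 4.15, 3.82 and 4.03 in AMPK KO samples. All 3 AMPK KO samples lay below the WT mean, and WT sample 3 fell among them. Of the 9 tested members it had the largest difference in the fit as deposited, at -0.44 (SE 0.29, 95% interval -1.05 to 0.17), which is 0.739 of the WT level with an interval from 0.484 to 1.13. It did not pass the test (limma, adjusted p = 0.408). Tfb2m was the only tested member whose interval reached beyond a 2-fold change.

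**Figure D1:**
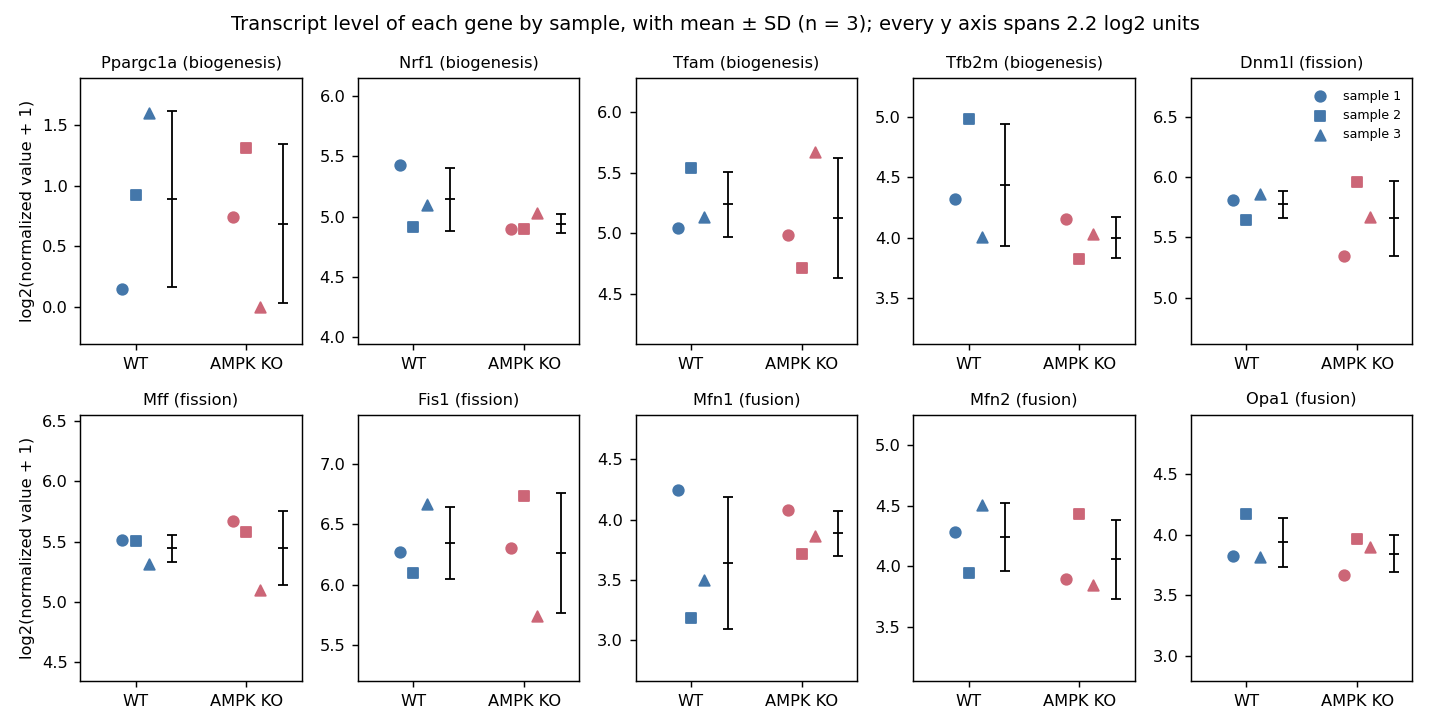
Log2 level (normalized value plus 1) of each of the 10 genes in every sample, with WT and AMPK KO side by side. Points are samples, the line is the group mean and the bar its SD (n = 3). The points of both genotypes overlap for each gene, as for Tfam, where AMPK KO samples sit at both 4.71 and 5.67 and WT samples between 5.04 and 5.54.

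No fission gene passed the test. Dnm1l (chr16:16312230-16358959, minus strand) encodes DRP1, the GTPase that constricts the organelle, and had log2 values of 5.81, 5.65 and 5.86 in WT and 5.34, 5.96 and 5.67 in AMPK KO samples. AMPK KO samples held both its lowest and its highest value. The difference was -0.12 (SE 0.19, 95% interval -0.53 to 0.30; limma, adjusted p = 0.779).

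Mff (chr1:82724890-82752394, plus strand) encodes the outer-membrane receptor for DRP1 that AMPK phosphorylates. Its log2 values were 5.51, 5.51 and 5.31 in WT and 5.67, 5.58 and 5.10 in AMPK KO samples, so that the WT samples lay inside the AMPK KO range. Group means were 5.44 ± 0.11 and 5.45 ± 0.31 (SD, n = 3), the closest of any member. The 95% interval of the difference ran from -0.43 to 0.44 (limma, adjusted p = 0.994).

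Fis1 (chr5:136953275-136966234, plus strand) encodes another outer-membrane protein of the fission machinery. It had log2 values of 6.27, 6.10 and 6.67 in WT and 6.31, 6.73 and 5.75 in AMPK KO samples. Its AMPK KO samples spanned the whole WT range, and their SD of 0.50 was well above the 0.051 that read counting alone would give at 626 to 1131 reads. The difference was -0.09 (SE 0.23, 95% interval -0.58 to 0.41), with an adjusted p of 0.872 in limma.

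No fusion gene passed the test either. Mfn1 (chr3:32529465-32579239, plus strand), encoding mitofusin 1 of the outer membrane, had log2 values of 4.25, 3.19 and 3.50 in WT and 4.08, 3.71 and 3.86 in AMPK KO samples. All 3 AMPK KO samples lay above the WT mean and below WT sample 1. The difference of 0.24 (SE 0.32, 95% interval -0.44 to 0.92) was smaller than the WT SD of 0.55, and its adjusted p was 0.710 in limma.

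Mfn2 (chr4:147873599-147904704, minus strand) encodes mitofusin 2, which also tethers mitochondria to the endoplasmic reticulum. Its log2 values were 4.28, 3.95 and 4.50 in WT and 3.89, 4.43 and 3.85 in AMPK KO samples, on 144 to 221 reads a sample. AMPK KO sample 2 lay above WT samples 1 and 2, while the other AMPK KO samples lay below all WT samples. The difference was -0.19 (SE 0.27, 95% interval -0.77 to 0.40; limma, adjusted p = 0.741).

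Opa1 (chr16:29579334-29654884, plus strand), which encodes the GTPase that fuses inner membranes and shapes cristae, had log2 values of 3.82, 4.17 and 3.82 in WT and 3.67, 3.97 and 3.90 in AMPK KO samples. AMPK KO samples 2 and 3 lay above WT samples 1 and 3. The difference was -0.09 (SE 0.27, 95% interval -0.67 to 0.48), with an adjusted p of 0.883 in limma.

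**Figure D2:**
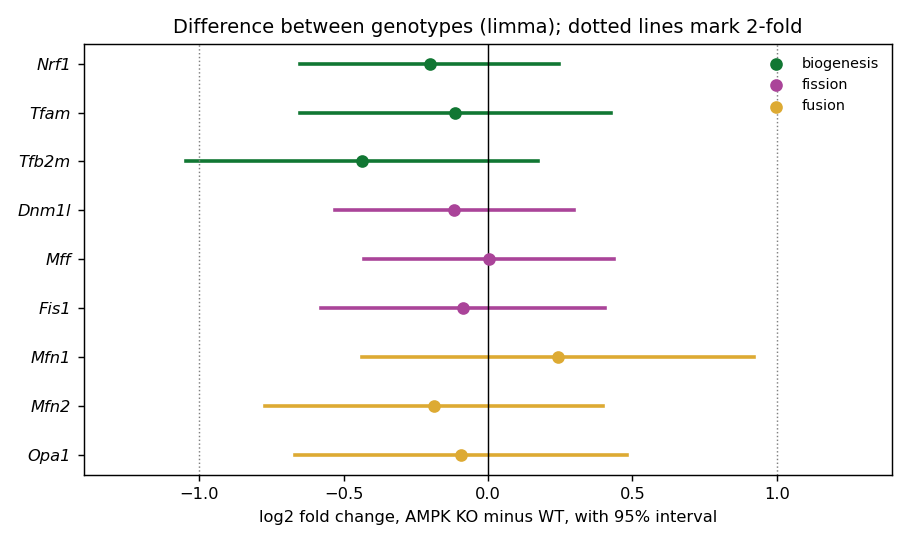
Difference in log2 level, AMPK KO minus WT, for the 9 tested genes, with the 95% interval from limma (n = 3 a genotype). Every interval includes 0, and that of Tfb2m extends furthest down, to -1.05.

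Read as a group, 0 of the 9 tested members were called at an adjusted p under 0.05, where 5.65% of all 11279 tested genes were called (637 genes, 287 or 2.54% higher and 350 or 3.1% lower). That background count rests on single samples, since it ran from 127 with WT sample 1 left out to 1243 with AMPK KO sample 2 left out, while the members' count was 0 each time. At an unadjusted p under 0.05 the members again numbered 0, both with limma on the deposited values and with limma voom on recovered reads, where 21.3% of all genes passed in the former. The count of members whose 2 genotypes did not overlap was 0 of 9, against 25.6% of all genes. In all, 7 tested members had a lower and 2 (Mff and Mfn1) a higher mean in AMPK KO samples. Leaving out 1 sample reversed the direction of 5 of the 9 (Tfam, Dnm1l, Mff, Fis1 and Opa1), and Mff also reversed when scaled to the reads outside Rn45s (-0.064) and in limma voom (-0.0014). The median difference was -0.11, beside 0.02 over all tested genes, and 90% of all genes lay between -0.76 and 0.96. By role, the median was -0.20 for the 3 tested biogenesis genes and -0.09 for both the fission and the fusion genes.

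The members did not follow one order of samples. Fis1 and Mfn2 each had their highest WT value in sample 3 and their lowest in sample 2, and their highest AMPK KO value in sample 2 and lowest in sample 3. AMPK KO sample 3 stood 0.52 below the mean of its genotype for Fis1 and 0.35 below it for Mff, but 0.55 above it for Tfam. In WT, sample 2 was highest for Tfam, Tfb2m and Opa1 and lowest for Nrf1, Dnm1l, Fis1, Mfn1 and Mfn2. No sample was high or low for all members. Counting error alone would give SDs of 0.051 to 0.12 for the 9 tested members, below the observed SD in at least 1 genotype for each of them.

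**Figure D3:**
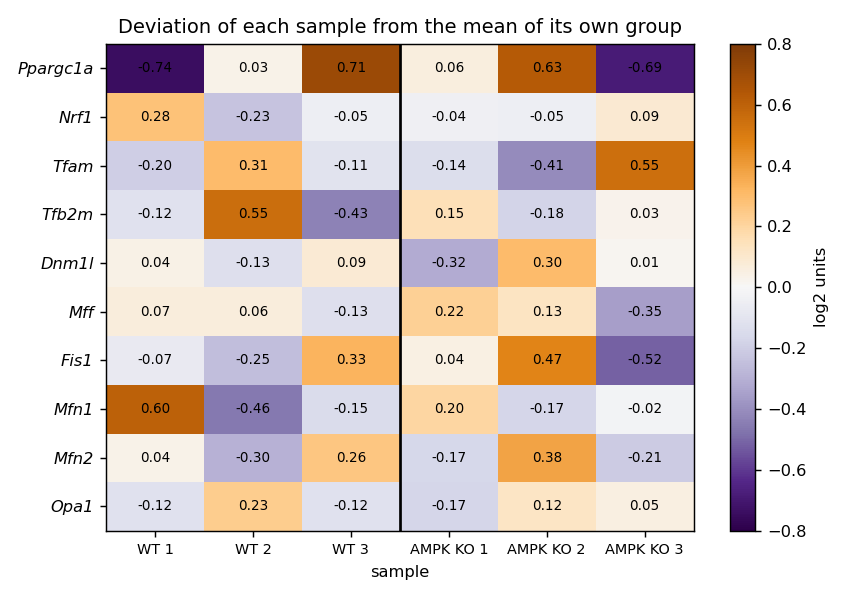
Deviation of each sample from the mean of its own genotype, in log2 units, for the 10 genes, with orange above and purple below the mean. AMPK KO sample 3 is low for Fis1 (-0.52) and high for Tfam (0.55), and WT sample 2 is high for Tfb2m (0.55) and low for Mfn1 (-0.46).

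The wider pathway was read from 6 lists of 109 other mitochondrial genes, of which 97 could be tested. None was called. An unadjusted p under 0.05 in limma was found for 17 (17.5%, beside 21.3% of all genes), 8 higher and 9 lower, and limma voom gave 17 as well and also called 0. With 1 sample left out, that count of 17 ran from 10 (WT sample 1 or AMPK KO sample 3) to 19 (WT sample 2 or AMPK KO sample 2). It was 10 with the replicate number as a block. The groups did not overlap for 20 of the 97 genes (20.6%, beside 25.6% of all genes), and their median difference was -0.02.

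Among 15 tested regulators of biogenesis, 11 had a lower and 4 a higher mean in AMPK KO samples, with a median of -0.24. The genotypes did not overlap for 8 of the 15 (53.3%, beside 25.6% of all genes), and 6 had an unadjusted p under 0.05 (40%, beside 21.3% of all genes), but the lowest adjusted p was 0.0521 in limma. That gene was Nfe2l2, which encodes the antioxidant regulator NRF2 (not a nuclear respiratory factor), with log2 values of 6.86, 6.30 and 6.33 in WT and 6.01, 5.64 and 5.84 in AMPK KO samples. All its AMPK KO samples lay below all WT samples, with a difference of -0.67 (SE 0.19). Sirt1, the deacetylase that acts on PGC-1α, had the largest positive difference of the list, 0.56 (SE 0.20; limma, adjusted p = 0.113).

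A further 7 regulators, picked after their values were seen, concern the partners of the members. The 2 relatives of PGC-1α both had AMPK KO values that did not overlap those of WT, as for 25.6% of all genes. Ppargc1b, encoding PGC-1β, had log2 values of 4.11, 4.58 and 4.65 in WT and 3.99, 3.80 and 3.85 in AMPK KO samples, a difference of -0.57 (SE 0.26; limma, adjusted p = 0.219). Pprc1, encoding the PGC-1-related coactivator, had 4.22, 4.48 and 4.71 in WT and 3.97, 3.92 and 3.64 in AMPK KO samples, a difference of -0.63 (SE 0.26; limma, adjusted p = 0.175). The subunits of GABP, the factor whose motif is printed above, gave unlike values. Gabpa, its DNA-binding subunit, differed by -0.05 (limma, adjusted p = 0.945), and Gabpb1, a transactivating subunit, by 0.54 (SE 0.17; limma, adjusted p = 0.0691), with 5.96, 5.73 and 5.68 in WT and 6.24, 6.40 and 6.36 in AMPK KO samples. Gabpb2, the other transactivating subunit, differed by -0.29 (SE 0.19; limma, adjusted p = 0.397), with all 3 AMPK KO samples below the WT mean. The genotypes overlapped for Esrra, which encodes the estrogen-related receptor α (-0.19; limma, adjusted p = 0.614), and for Creb1, which encodes a factor that binds the cyclic AMP response element (-0.05; limma, adjusted p = 0.883). None of these 7 passed the test.

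Genes that copy and transcribe mitochondrial DNA, as Tfam and Tfb2m do, had a lower mean in AMPK KO samples for 15 of 19, with a median of -0.15. Their extremes were Primpol, a primase and polymerase, at -0.77 (SE 0.36; limma, adjusted p = 0.235) and Mterf4, which acts in mitochondrial ribosome assembly, at 0.63 (SE 0.42). The genotypes did not overlap for 1 of the 19 (5.26%, beside 25.6% of all genes). None of the symbols searched for transcripts encoded by mitochondrial DNA itself was among the genes listed, so these were not analysed here.

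Partners of the fission and fusion members were spread around 0. The 15 tested fission partners had a median of 0.08, from Fam73b, which encodes mitoguardin 2 and is itself known for promoting fusion, at -0.71 (SE 0.49) to Spire1, an actin nucleator, at 0.70 (SE 0.48). The 20 genes that process OPA1 or shape the inner membrane had a median of 0.02, from Opa3 at -0.73 (SE 0.23; limma, adjusted p = 0.0812) to Stoml2, an inner-membrane scaffold, at 0.73 (SE 0.28; limma, adjusted p = 0.151). Neither Opa3 nor Stoml2 passed the test.

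Mitophagy and mitochondrial mass genes had medians above 0. Of 12 mitophagy genes 7 had a higher mean in AMPK KO samples (median 0.17) and 2 had genotypes that did not overlap (16.7%, beside 25.6% of all genes), and their extremes were Usp30, a deubiquitinase that opposes mitophagy, at 0.76 (SE 0.35) and Bcl2l13, a mitophagy receptor, at -0.43 (SE 0.22). Of 16 genes for mass and import 13 had a higher mean (median 0.24), and 2 had genotypes that did not overlap (12.5%, beside 25.6% of all genes). Cs, the citrate synthase often used as a marker of mitochondrial mass, had log2 values of 5.53, 5.66 and 5.16 in WT and 6.10, 5.90 and 6.45 in AMPK KO samples. All AMPK KO samples lay above all WT samples, and the difference of 0.70 (SE 0.20) had an adjusted p of 0.0555 in limma. Under some of the alternative settings Cs and Nfe2l2 passed the threshold. Sdha, a subunit of respiratory complex II, was the lowest of that list at -0.31 (SE 0.18; limma, adjusted p = 0.337).

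**Figure D4:**
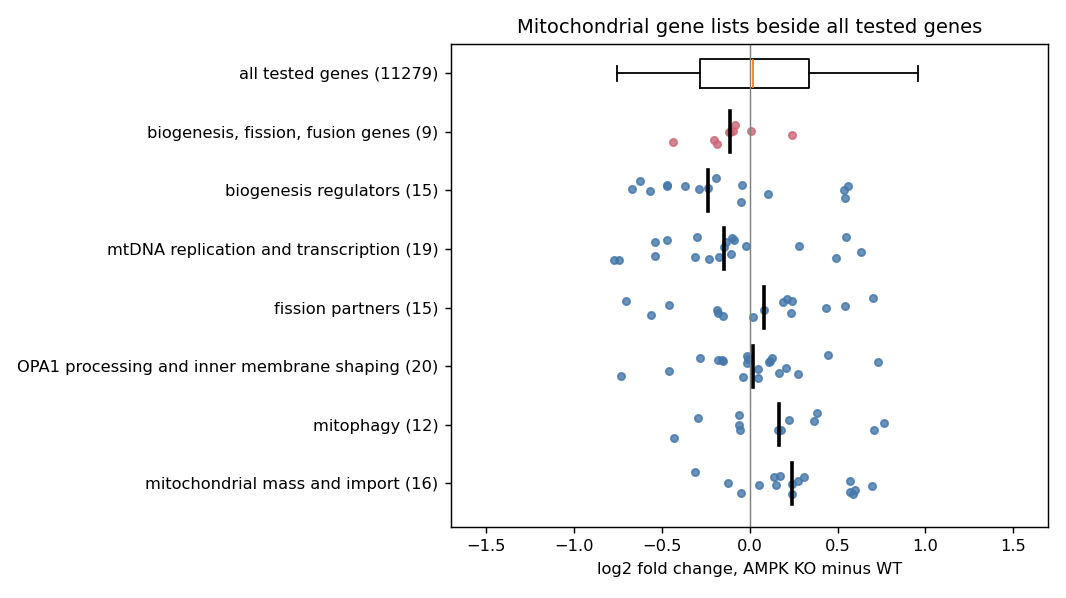
Differences in log2 level, AMPK KO minus WT, of the tested genes in each list, 1 point a gene, beside the spread of all tested genes. List medians run from -0.24 for biogenesis regulators to 0.24 for mitochondrial mass and import, and no gene in the mitochondrial lists passed the test.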

How the data were processed

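The deposited values are log2 values: per the labels and the study's methods, the authors aligned QuantSeq 3′ reads to mm10 with Bowtie2, counted them with bedtools, applied TMM + CPM normalization and took log2 of the value plus 1. Versions were not given in the sources used here. The members and lists were chosen with earlier results of these data known.

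Whole reads were recovered from the low values: 100% of values up to 100 reads lay within 0.1 of a whole number. Genes with a mean log2 value of at least 1 (11279) were compared by genotype alone with limma 3.58.1 (R 4.3.3; lmFit, eBayes with trend), with Benjamini-Hochberg adjustment over all of them and a threshold of 0.05. Each member also had an exact two-sided permutation test. Symbols listed on several lines (35 symbols, 79 lines) were kept as separate entries. On simulated counts over 11446 genes, the fit recovered 106 of 111 genes changed by 1 log2 unit and 89 of 89 changed by 2, with 24 false calls. That simulation gave every gene the same fixed spread between samples and changed only genes above a minimum read count. Its recovery therefore does not carry over to the real samples.

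In each of the 6 lists of other mitochondrial genes, the tested genes with the largest rise and fall were named. Loci came from GENCODE M21 and sequences from RefSeq GRCm38.p6 (16 windows of the 10 members, from 250 bases before to 50 after the start site). Annotated genes overlap 6 members (an antisense gene in Dnm1l among them), 0 of them within the last 1000 bases. Alternatives covered normalization, filter, pseudocount, spread estimation, limma voom, the replicate number and leaving out each sample.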

Additional observations from a re-analysis of the deposited data

How the results depend on the processing

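No member was called, and none had an unadjusted p under 0.05, under any of the 14 alternatives; the lowest unadjusted p was 0.0505 and the lowest adjusted p 0.317 (Tfb2m, with WT sample 3 left out). Under the 10 alternatives that can move a difference of means, 79 of 90 differences kept their direction and 11 reversed. Leaving out 1 sample gave -0.39 to 0.092 for Tfam, -0.27 to 0.041 for Dnm1l, -0.11 to 0.18 for Mff, -0.32 to 0.17 for Fis1 and -0.15 to 0.023 for Opa1, all crossing 0; Nrf1 stayed between -0.32 and -0.06, Tfb2m between -0.65 and -0.16, Mfn2 between -0.38 and -0.06 and Mfn1 between 0.01 and 0.54. Mff also reversed when scaled to the reads outside Rn45s (-0.064) and in limma voom (-0.0014); the cause was not tested. Ppargc1a, tested only without a filter, gave -0.21 (limma, adjusted p = 0.847).

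The count over all genes, 637, fell to 308 without a filter, where more genes were tested, and with 1 sample left out, ran from 127 (WT sample 1) to 1243 (AMPK KO sample 2), passing 730 (WT sample 2), 133 (WT sample 3), 173 (AMPK KO sample 1) and 459 (AMPK KO sample 3). Scaling outside Rn45s moved the share of higher calls from 45.1% to 32.2%. Of the other mitochondrial genes, 1 was called under quantile normalization (Cs), under a filter at 3 and with a pseudocount of 4 (Nfe2l2 in both), 2 when scaled outside Rn45s (Nfe2l2 and Yy1) and with robust estimation (Nfe2l2 and Cs), 4 (Cs, Tomm70a, Nfe2l2 and Opa3) when WT sample 2 was left out and 5 (Sirt1, Cs, Tomm22, Lonp1 and Ulk1) when AMPK KO sample 2 was. With the replicate number as a block, 102 genes and no member were called (limma, lowest member adjusted p = 0.540). Deviations of same-numbered samples from the means of their genotypes correlated at -0.08, -0.32 and -0.16. These values do not settle whether same-numbered samples were paired. Read counts of 0 to 18 limit Ppargc1a.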
